A study of Homo sapiens with 14 samples.

Results

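The KMT2D peaks of the epidermal differentiation complex were taken from a chromatin immunoprecipitation sequencing (ChIP-seq) peak list of SCC23, a cell line derived from a squamous cell carcinoma of the head and neck. A peak belonged to the complex when its summit, the base with the strongest signal, lay between 151.95 and 153.65 Mb of chromosome 1 in the GRCh37 (hg19) build. Of the 13808 peaks in the list, 28 met this rule. The cells were wild type for KMT2D and were kept in a low glucose condition, which the study describes as glucose deprivation for 6 hours. The labels cover 14 samples with other antibodies, an input and KMT2D knockout cells, and 1 of them, the KMT2D library of the wild-type cells, was analysed here. With 1 library of 1 cell line there were no replicates, no glucose-fed cells and no knockout cells to compare with, and no test across libraries was possible. A peak list holds no expression values, so the labelled cell type was not checked against marker genes.

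KMT2D is a histone methyltransferase that places methyl groups on lysine 4 of histone H3, mainly at enhancers and also at promoters. The epidermal differentiation complex is a dense gene cluster on the long arm of chromosome 1 that serves the terminal differentiation of stratified epithelia. Its middle encodes the proteins of the cornified envelope. Involucrin (IVL) and loricrin (LOR, now LORICRIN), the small proline-rich proteins (SPRR) and the late cornified envelope proteins (LCE) are cross-linked under the membrane of dying keratinocytes, and filaggrin (FLG) and its relatives bundle or bind keratin filaments. The S100 genes at both ends encode small calcium-binding proteins, among them S100A10, the partner of annexin A2, and S100A8 and S100A9, which together form calprotectin.

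In the RefSeq annotation of GRCh38.p14, which was used for names and order only, 63 protein-coding genes run from S100A10 to S100A1. They include 16 S100 genes, 19 LCE genes and 11 SPRR genes. The complex was divided in this order into 6 blocks at round positions. The S100A10/S100A11 block held 2 genes in 0.1 Mb, the block from the trichohyalin genes to CRNN held 7 with FLG in 0.4 Mb, and the LCE block held 23 in 0.4 Mb. They were followed by the IVL, SPRR and LOR block with 17 genes in 0.45 Mb, the S100A9, S100A8 and S100A7 block with 5 genes in 0.15 Mb, and the S100A6 to S100A16 block with 9 genes in 0.2 Mb. The first block and the last 2 are called the S100 ends, and the other 3 the LCE/SPRR middle. No annotation of GRCh37 was used and no coordinate was converted, so a peak was placed in a block and was not assigned to a gene. The bounds of the blocks are approximate. The genes that follow S100A1 in the order (CHTOP, SNAPIN, ILF2 and NPR1) may reach into the last block.

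KMT2D peaks gathered in the outermost S100 blocks and were sparse or absent in the blocks of the middle. A count as low as that of the middle was common among windows of its length, as given below. The S100 ends carried 22 of the 28 peaks, or 78.6%, on 26.5% of the length. The LCE/SPRR middle carried 6. The density was 48.9 peaks per Mb in the ends (95% exact Poisson interval 30.6 to 74.0) and 4.80 in the middle (1.76 to 10.4). The middle therefore had 0.0982 times the density of the ends (95% exact conditional interval 0.0326 to 0.250), which makes the ends 10.2 times denser. These intervals and the others given here cover counting error only, and they treat neighbouring peaks as independent although some lay within 1 kb of each other.

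**Figure D1:**
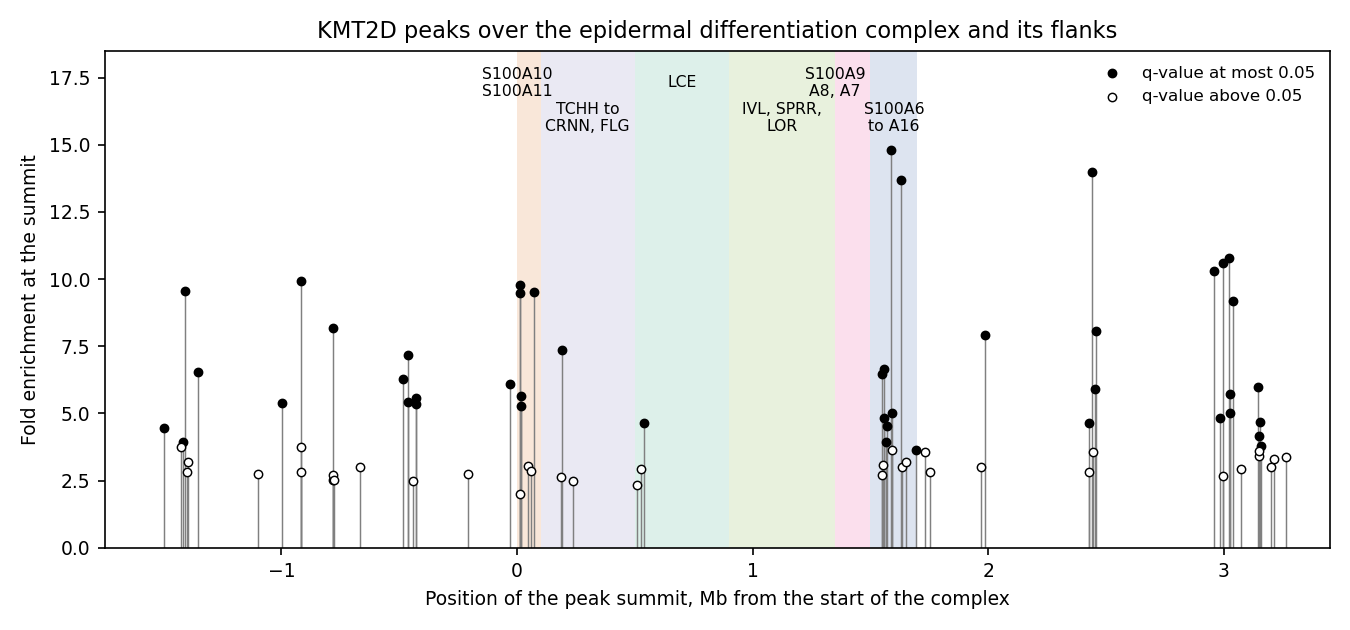
Each vertical line is 1 KMT2D peak of the complex or its flanks, placed by its summit in Mb from the start of the complex, and its height is the fold enrichment. Shaded bands are the 6 blocks, and filled points have a q-value of at most 0.05. Of the 28 peaks of the complex, 22 stand in its first and last bands and 6 in the bands with FLG and LCE, and the bands of IVL, SPRR and LOR and of S100A9, S100A8 and S100A7 hold 0.

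Within the ends the peaks were not evenly spread over the S100 blocks. The S100A10/S100A11 block carried 8 peaks (80.0 per Mb, 34.5 to 158) and the S100A6 to S100A16 block 14 (70 per Mb, 38.3 to 117). Their densities differed by less than the counting error, with a ratio of 1.14 (0.415 to 2.92). The block of S100A9, S100A8 and S100A7, whose products are known from inflamed and differentiating epithelium, carried 0 peaks (0 to 24.6 per Mb). Read as allowing 3 peaks, a one-sided limit, a count of 0 in 0.15 Mb allows up to 20.0 per Mb. In the middle, the block with FLG and the LCE block carried 3 peaks each (7.5 per Mb, 1.55 to 21.9), and the block of IVL, SPRR and LOR carried 0 (0 to 8.20 per Mb). By the same limit, a count of 0 in its 0.45 Mb allows up to 6.67 per Mb.

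**Figure D2:**
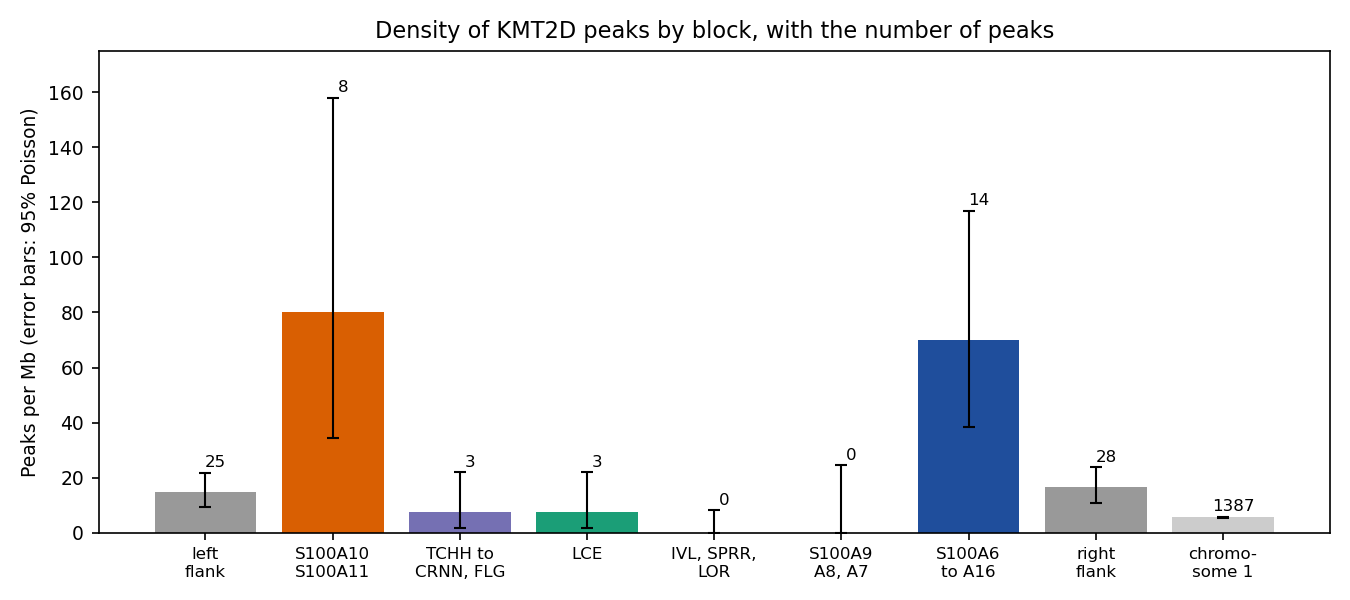
Bars give KMT2D peaks per Mb in the left flank, the 6 blocks in order of position, the right flank and chromosome 1, with 95% exact Poisson error bars and the number of peaks above each bar. The S100A10/S100A11 block at 80.0 and the S100A6 to S100A16 block at 70 stand above both flanks, and 2 blocks have no peak.

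The surroundings of the complex were themselves rich in peaks. The flank of 1.7 Mb before it carried 25 peaks and the one after it 28, so that the complex as a whole, with 16.5 peaks per Mb, matched the flanks with 15.6 within counting error (ratio 1.06, 0.643 to 1.7). The S100 ends had 3.14 times the density of the flanks (1.82 to 5.25), and the LCE/SPRR middle had 0.308 times (0.108 to 0.716). The flank densities are averages over 1.7 Mb each, and peaks were uneven within the flanks too. Counted from the start of the complex, the right flank had no summit between 2.4558 and 2.9597 Mb. A dense run of summits followed from 2.9597 to 3.1577 Mb. Stretches of the flanks as short as the blocks were not compared, so dense and empty stretches were not shown to set the complex apart. The rest of chromosome 1 carried 5.49 peaks per Mb of its span, assembly gaps included. Against this level the ends were 8.90 times denser (5.56 to 13.5), whereas the middle, with a ratio of 0.874 (0.320 to 1.91), was not distinguishable from it at this depth. The middle was thus low beside its neighbours. Whether it was also low beside the chromosome was not resolved, since the interval of 0.320 to 1.91 allows a lower or a higher density. Of its 6 peaks, 2 passed the less strict of the q-value thresholds used below, beside 815 of 1387 on chromosome 1. The densities of the passing peaks were not compared between the middle and the chromosome. The last summit before the complex lay 31.6 kb from its start, at position 151918427, and the next one after it 31.2 kb from its end, at position 153681228.

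All windows of the same length on chromosomes 1 to 22 and X gave the background for these counts. Of 1695 windows of 1.7 Mb, 77 (4.54%) held at least 28 peaks, and the median window held 4. Windows of 0.1 Mb reached the 8 peaks of the S100A10/S100A11 block in 0.468% of 29246 cases, and windows of 0.2 Mb reached the 14 of the S100A6 to S100A16 block in 0.212% of 14610. A low count was common. As few as 6 peaks were found in 70.6% of windows of 1.25 Mb, the length of the middle, and 53.1% of windows of 0.45 Mb had no peak, as the IVL, SPRR and LOR block had none. Windows in assembly gaps, which cannot hold a peak, were not left out. They raise the shares of windows with a low count and lower the shares with a high count, by an unknown amount. The scarcity of peaks in the blocks of the middle was near this background. The S100A10/S100A11 and S100A6 to S100A16 blocks were in its upper tail. These 2 blocks were the peak-rich ones. The region and its blocks were chosen with earlier results known, so this place is a description only. The S100 ends as a whole, with the empty S100A9, S100A8 and S100A7 block, were not set beside windows.

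**Figure D3:**
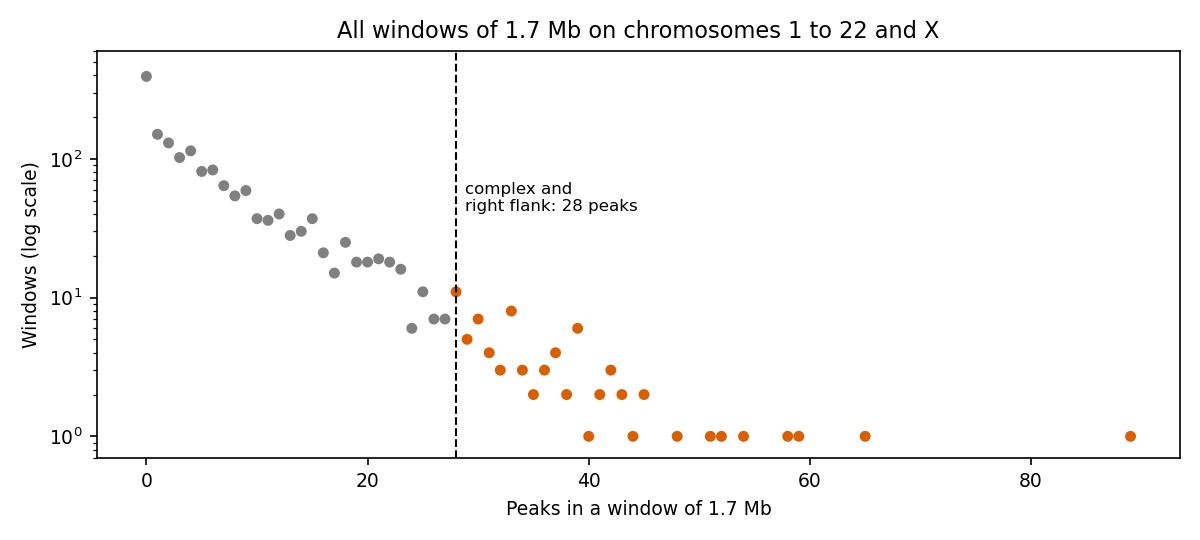
Each point gives how many windows of 1.7 Mb on chromosomes 1 to 22 and X (log scale) held a given number of KMT2D peaks. The dashed line marks the 28 peaks of the complex, a number that its right flank also reached, and orange points are the 77 windows with at least 28.

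The 28 peaks are numbered here from 1 to 28 in order of position. Fold enrichment, the scaled ChIP signal at the summit over the local background with 1 added to both, ranged from 1.99 to 14.8 with a median of 4.23 (interquartile range 3.0 to 6.51). The median over chromosomes 1 to 22 and X was 4.01, and 14 of the 28 lay above it. The number of ChIP fragments over the summit ranged from 14.0 to 114 with a median of 29.5, against 2.88 that the genome-wide background gives. At a q-value threshold of 0.05, 16 peaks passed (57.1%, Wilson interval 39.1 to 73.5%), beside 58.8% over chromosomes 1 to 22 and X. At 0.01, 14 passed, beside 48.0%. In fold enrichment and q-value, the peaks of the complex were thus near the middle of the list. The remaining 12 did not pass at 0.05, and for 4 of these the q-value was 1.

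The strongest signal of the complex lay in the S100A6 to S100A16 block, where the annotation order places 9 S100 genes, from S100A6 to S100A1. No peak was assigned to any of them. Peak 22, at chromosome 1 positions 153537955 to 153539559, had 114 fragments over its summit (95% Poisson interval 94.0 to 137) and a fold enrichment of 14.8, above 99.3% of peaks on chromosomes 1 to 22 and X. It was also the widest, at 1605 bp. Peak 25, at positions 153580706 to 153581980, had 73 fragments (57.2 to 91.8) and a fold enrichment of 13.7, above 98.9% of peaks. Its local background was at the genome-wide level, whereas that of peak 22 was 1.83 times this level.

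Peak 22 did not stand alone. Peak 23 began 206 bp behind it, at positions 153539766 to 153540686, with 63 fragments and a fold enrichment of 5.00 where the local background was raised 3.65 times. Peak 24 followed after 263 bp, at positions 153540950 to 153541432, with 21 fragments, a fold enrichment of 3.64 and a q-value of 0.217. The 3 peaks covered 86.5% of a stretch of 3.48 kb, and they would be counted as 1 if peaks within 1000 bp were merged. On the other side of the gap that follows, peak 26 with 14 fragments and peak 27 with 15 had q-values of 0.994 each. They were the weakest of the complex by fragments and lay well inside the block that held its strongest peaks.

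At its other edge this block held a looser group. Peaks 15 to 21 ran over 23.4 kb from position 153498612 to 153522058 and covered 11.8% of it. The highest fold enrichment among them was 6.64 in peak 18, at positions 153506234 to 153506923, with 34 fragments. Peak 16, at positions 153499518 to 153499855, had 33 fragments and a fold enrichment of 6.47. Both had a q-value of 1.20e-06. Peak 21, which closes the group at positions 153521791 to 153522058, had 29 fragments and a q-value of 0.000633. Peak 15, the first after the long stretch without peaks, had 26 fragments over a background 2.74 times the genome-wide level, a fold enrichment of 2.72 and a q-value of 1. Peak 28, the last of the complex, lay 43.6 kb behind peak 27 at positions 153643626 to 153643812 and was the narrowest at 187 bp, with 28 fragments and a q-value of 0.0395.

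The S100A10/S100A11 block held the other strong group. Peak 3, at positions 151964667 to 151965705, had 56 fragments (42.3 to 72.7) and a fold enrichment of 9.77. Peak 8, at positions 152019989 to 152021359, had 59 fragments (44.9 to 76.1), a fold enrichment of 9.51 and a width of 1371 bp. Peak 1, at positions 151960887 to 151961467, had 72 fragments (56.3 to 90.7) and a fold enrichment of 9.47. These 3 values were close to each other, and the intervals of the fragment numbers overlapped. Together with peaks 22 and 25 they were the 5 peaks of the complex with a fold enrichment of at least 9, a level chosen after the values were seen and reached by 6.61% on chromosomes 1 to 22 and X. All 5 lay in the S100 ends.

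Peaks 1 to 5 formed a compact group, 5 peaks in 6.84 kb from position 151960887 to 151967722, which they covered to 58.5%. Peak 4, at positions 151965956 to 151966762, had 31 fragments and a fold enrichment of 5.65, and peak 5, at positions 151967280 to 151967722, had 39 fragments and 5.28. Peak 2, at positions 151962125 to 151963252, was different. It had 34 fragments and a width of 1128 bp, yet a fold enrichment of 1.99, since the local background there was 5.48 times the genome-wide level, the highest of the complex. That background equals 6.00 control fragments, and the q-value was 1. A chain of 3 peaks followed over 24.7 kb, of which peaks 6 and 7 had 20 and 16 fragments with q-values of 0.693 and 0.880, and peak 8 was the strong one given above.

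**Figure D4:**
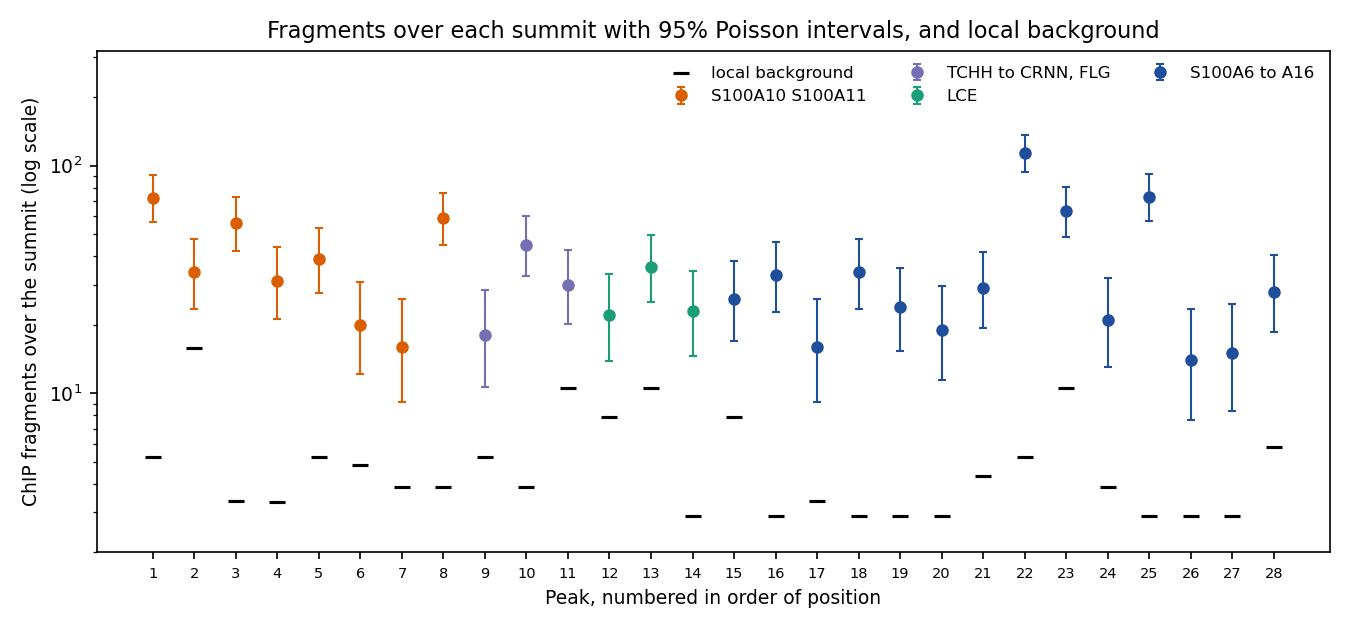
Points give the ChIP fragments over the summit of each of the 28 peaks (log scale) with 95% exact Poisson intervals, coloured by block, and black dashes give the fragments that the local background yields. Peak 22 is highest at 114, and the dash of peak 2, at 15.8, comes nearest to its own point.

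In the LCE/SPRR middle, 2 of 6 peaks reached a q-value of at most 0.05 (33.3%, 9.68 to 70%), beside 14 of 22 in the ends (63.6%, 43.0 to 80.3%). The intervals overlapped. The median fold enrichment was 2.78 in the middle and 4.69 in the ends, and the median fragment number was 26.5 and 30. The local background was at least 2 times the genome-wide level at 3 of 6 peaks of the middle and at 4 of 22 of the ends. It was so at 15.2% of peaks on chromosomes 1 to 22 and X. The part of this background in the lower fold enrichment of the middle was not tested.

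The block with FLG held 1 strong peak. Peak 10, at positions 152140323 to 152140715, had 45 fragments (32.8 to 60.2), a fold enrichment of 7.35 and a q-value of 4.62e-10, above 87.8% of peaks on chromosomes 1 to 22 and X. Peak 9, 4.59 kb before it, had 18 fragments and a q-value of 1. Peak 11, at positions 152186840 to 152187029, had 30 fragments over a background of 4 control fragments and a q-value of 0.967. The next peak lay 273 kb further on.

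The 3 peaks of the LCE block stood near its start, between positions 152460420 and 152490339, and the rest of the block had none. Peak 12, at positions 152460420 to 152460770, had 22 fragments, a fold enrichment of 2.34 and a q-value of 1. Peak 13, at positions 152474858 to 152475640, had 36 fragments, a fold enrichment of 2.94 and a q-value of 0.118. Peak 14, at positions 152489723 to 152490339, had 23 fragments over a background at the genome-wide level, a fold enrichment of 4.65 and a q-value of 0.00590. Peak 13 had more fragments than peak 14 and a lower fold enrichment, since its background was 3.65 times the genome-wide level.

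Behind peak 14 no peak was listed for 1.01 Mb, from position 152490340 to 153498611. This stretch took in the rest of the LCE block, all of the IVL, SPRR and LOR block and all of the S100A9, S100A8 and S100A7 block. It was the longest of the complex and was singled out after its values were seen. Stretches at least this long made up 5.04% of the 13113 between neighbouring peaks of chromosomes 1 to 22 and X (661 stretches, 50 of them on chromosome 1), and such stretches covered 57.8% of the span of these chromosomes. A stretch of this length was therefore rare by number and common by sequence, with assembly gaps counted in the span. The smallest number of fragments over any summit in the list was 11, so that weaker binding over these genes would not appear in it.

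IVL, a classical marker of early keratinocyte differentiation, lies at 152.881 to 152.884 Mb and thus inside this stretch. The nearest summit was that of peak 14, at 391 kb before the gene, and the nearest on the other side that of peak 15, at 615 kb behind it. IVL is the 1 gene of the complex whose GRCh37 position was at hand, and its promoter is shown for that reason. The RefSeq sequence (GRCh38.p14, plus strand) of the 250 bases before its start site is given from 5′ to 3′, with capitals at the match to TGANTCA, the motif of AP-1 factors:
IVL: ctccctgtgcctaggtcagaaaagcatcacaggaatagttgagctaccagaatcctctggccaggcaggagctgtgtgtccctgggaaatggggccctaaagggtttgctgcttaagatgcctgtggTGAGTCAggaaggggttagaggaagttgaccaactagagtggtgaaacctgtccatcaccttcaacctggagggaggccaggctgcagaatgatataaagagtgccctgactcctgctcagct
The match begins 123 bases before the start site. TGANTCA reads the same on both strands and was searched in the 250 bases before each start site in RefSeq, where 8.06% of 27305 genes held it. In the annotation order of the complex it was found at 6 of 7 genes of the block with FLG, 0 of 21 LCE block genes with a promoter entry, 10 of 15 in the block of IVL, SPRR and LOR, and 1 of 5 in the block of S100A9, S100A8 and S100A7. In the blocks with most peaks it was found at 0 of 2 genes (S100A10 and S100A11) and 3 of 9 (S100A6 to S100A1). Genes of a family share sequence and are not independent, and a match does not show that a factor is bound. No sequence under the peaks was read, since the genome at hand was of another build.

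The peaks of the ends lay close to each other. Stitching peaks over gaps of up to 12.5 kb gave 4 clusters of at least 3 peaks, all of them in the S100 ends, which held 18 of the 28 peaks (64.3%). On chromosomes 1 to 22 and X, 33.8% of peaks lay in such clusters. The flanks held such clusters too, for example with summits 3.1472 to 3.1577 Mb from the start of the complex. The shares of flank peaks in clusters or within 2 kb of a neighbour were not computed. Clustering was therefore not shown to set the complex apart from its flanks. The 4 clusters of the complex were those of peaks 1 to 5, 6 to 8, 15 to 21 and 22 to 24. Neighbouring peaks lay within 2 kb of each other in 4 of 7 cases in the S100A10/S100A11 block and in 6 of 13 in the S100A6 to S100A16 block, beside 16.9% of neighbours on chromosomes 1 to 22 and X. The median stretch between neighbours was 1.41 kb in the first and 3.85 kb in the second.

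The median width of the 28 peaks was 480 bp, against 344 bp over chromosomes 1 to 22 and X and 449 bp in the flanks. A width above 1000 bp was found in 5 of 28 (peaks 2, 3, 8, 22 and 25), or 17.9%, beside 5.63% over chromosomes 1 to 22 and X and 11.3% in the flanks. All 5 lay in the S100 ends, and the widest peak of the middle measured 783 bp. Wider peaks tended to be stronger. Across the 28 peaks, which share 1 library, the Spearman correlation of width and fold enrichment was 0.528, near the 0.507 over chromosomes 1 to 22 and X. In all, peaks covered 3.15% of the S100 ends, 0.210% of the middle and 0.861% of the flanks.

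The local background comes from the control, and its median over the 28 peaks was 1.34 times the genome-wide level, against 1.11 in the flanks and 1.16 on chromosome 1. It was at the genome-wide level, within 5%, at 8 peaks. At 10 peaks it was a whole number of control fragments (within 0.005) between 2.00 and 6.00, so that the denominators of their fold enrichments rest on few control fragments. The matching shares over chromosomes 1 to 22 and X are not given here, so neither count was shown to set these peaks apart. Fold enrichment and local background had a Spearman correlation of -0.399 across the 28 peaks, beside -0.0522 over chromosomes 1 to 22 and X. The background is the denominator of the fold enrichment, so the 2 are not independent.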

How the data were processed

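Chromatin of SCC23 cells was immunoprecipitated with an antibody to KMT2D, and 1 of the 14 labelled samples was analysed. The authors mapped reads to hg19 with Bowtie2, kept unique alignments and called peaks in MACS2 at a p-value below 0.01. The control is not named in the sources used here. The deposited fold enrichment is a ratio of scaled ChIP signal to local background, with 1 added to both. The deposited score and the deposited −log10 p-values and q-values describe the summit.

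Fragments, as whole numbers, and the local background, in scaled fragments, were rebuilt from fold enrichment and p-value with a scale of 0.381. The rebuilt −log10 p lay within 0.00169 of the deposited one at all 13808 peaks. Fragments and scale were chosen to make this gap small, so it describes the fit and is not an independent check. The method was tested on simulated data, where it returned the fragments and backgrounds put in. The simulated lists were made with the same formulas that the method inverts. This covers the inversion only and cannot show that the formulas hold for the deposited list. The study gives an approximate sequencing yield per library. The exact number of mapped reads of this library was not at hand.

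The region, its blocks and lists were chosen with earlier results of these data known. Block bounds are round values from the known gene order. Peaks named singly were the 10 of highest fold enrichment, the 5 widest, those in the LCE and IVL/SPRR/LOR blocks, the one nearest to IVL and the ends of clusters. Peaks 7, 9, 11, 23 and 26 to 28 were added after their values were seen. A zero count was read as allowing 3. Intervals are at the 95% level, apart from interquartile ranges. The tools were Python 3.11.15 with pandas 2.3.3, numpy 2.4.6 and scipy 1.17.1. Alternatives changed the peak filter, merging, block bounds, flanks, stitching gap and comparison set.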

Additional observations from a re-analysis of the deposited data

How the results depend on the processing

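Among 34 alternatives, 28 were counted as leaving their result unchanged, 5 moved it further and 1 turned its direction. For a result with an interval or a count, unchanged meant within the interval or within 1.5 times the count. The median fold enrichment of the complex minus that of chromosomes 1 to 22 and X was 0.222 and had no interval. Against the peaks of the 2 flanks only, this difference shrank to 0.0645 and was still counted as unchanged. For the median fold enrichment, the interval used was the interquartile range of the peaks, 3.0 to 6.51, which is not an interval of the median. Its value of 6.06 at a q-value of at most 0.05 counted as unchanged on that basis. The 28 peaks of the complex became 16 at a q-value of at most 0.05, 14 at 0.01 and 15 when the list was limited to the 7052 peaks at or above its median fold enrichment, by construction. Their median fold enrichment of 4.23 became 6.55 at a q-value of at most 0.01. The 4 clusters became 2 at a q-value of at most 0.05. The density of the complex over its flanks, 1.06, was 0.933 (95% interval 0.528 to 1.6) once peaks with a local background raised 2 times or more were left out, and the intervals of both values include 1. The density of the middle over the ends stayed between 0.0514 and 0.144 against 0.0982, the highest value being that with peaks within 1000 bp merged, which left 21 peaks. The stretch of 1.01 Mb kept its length at both q-value thresholds, alternatives chosen after seeing the data. No paired analysis was possible because data of 1 sample were at hand. With 1 library, a median of 29.5 fragments per summit and block bounds set without an annotation of GRCh37, the list cannot show which weaker peaks would recur or which gene a peak belongs to.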
